A study of Homo sapiens with 15 samples.

Results

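The genes described here are 32 genes of cholesterol and fatty acid synthesis and its control, chosen by name. Through a table of Ensembl identifiers, 31 of them matched rows of a table of 16604 genes, and all 31 are described. The remaining gene, ACACA, was not matched and is not analysed here. No measured value was used to choose the genes, although the set was proposed with earlier results of these data known.

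RNA was sequenced from 15 samples of 5 human lines, 3 biological replicates a line, all derived from OVCAR4, a cell line established from high-grade serous ovarian carcinoma. Its parental form (Ovcar4Parental) is sensitive to carboplatin and cisplatin, platinum drugs that crosslink DNA. Ov4Cis was selected in rising cisplatin and is cisplatin resistant, and Ov4Carbo was selected in rising carboplatin and is carboplatin resistant. Ov4Carbo4 and Ov4Carbo7 are carboplatin-resistant lines that each grew from 1 cell of Ov4Carbo, so each stands for 1 clone. No engineered allele is named for any line, all lines were grown in DMEM with serum, and the labels do not say whether drug was present at harvest.

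Cholesterol is built from acetyl-CoA through mevalonate, the isoprenoids, squalene and a chain of sterols, and fatty acids are built from the same acetyl-CoA, then elongated and desaturated. Many of these enzymes share a control: when sterols in the endoplasmic reticulum run low, SCAP carries the transcription factors encoded by SREBF1 and SREBF2 to the Golgi, where they are cut and released to the nucleus, and INSIG1 holds SCAP back when sterols are plentiful. SREBF2 products act mainly on cholesterol genes and SREBF1 products mainly on fatty acid genes, and INSIG1, HMGCS1 and SQLE are among the genes known to respond. Tumour cells often rely on this synthesis for membranes.

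Promoter sequences were examined because these genes are known for shared promoter elements. RefSeq windows on GRCh38.p14, from 250 bases before to 50 after a transcription start, were at hand for 27 of the 31 genes. ACAT2, FDFT1, SQLE and FASN had no entry. The 250 bases before the start are shown for the regulators SREBF2 and INSIG1 and for 4 enzymes that varied differently across the lines: HMGCS1, DHCR7 and TM7SF2, which changed in 2 or 3 resistant lines, and MSMO1, which changed in none. HMGCS1 and DHCR7 have 2 windows each, of which 1 is shown. They run 5′ to 3′ along the gene's strand. Capitals mark the sterol regulatory element TCACNCCAC and the NF-Y box CCAAT, read on either strand, so that ATTGG is the same box on the other strand.
SREBF2, chr22:41832855-41833104, plus strand: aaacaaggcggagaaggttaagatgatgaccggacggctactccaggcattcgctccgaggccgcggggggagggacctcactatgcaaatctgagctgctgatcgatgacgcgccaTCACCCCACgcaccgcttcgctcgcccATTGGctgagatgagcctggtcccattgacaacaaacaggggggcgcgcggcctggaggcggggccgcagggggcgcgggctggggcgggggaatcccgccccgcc
INSIG1, chr7:155297628-155297877, plus strand: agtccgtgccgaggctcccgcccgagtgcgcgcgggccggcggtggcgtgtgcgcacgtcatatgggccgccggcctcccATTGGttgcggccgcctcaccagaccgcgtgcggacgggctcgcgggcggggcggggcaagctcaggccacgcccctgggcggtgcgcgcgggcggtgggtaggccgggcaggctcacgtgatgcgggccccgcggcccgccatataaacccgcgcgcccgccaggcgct
MSMO1, chr4:165327419-165327668, plus strand: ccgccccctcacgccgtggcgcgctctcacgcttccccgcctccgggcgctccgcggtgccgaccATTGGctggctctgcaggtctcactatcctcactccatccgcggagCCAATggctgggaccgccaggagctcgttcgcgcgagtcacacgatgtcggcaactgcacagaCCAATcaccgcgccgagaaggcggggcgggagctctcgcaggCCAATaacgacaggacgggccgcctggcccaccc
HMGCS1, chr5:43313413-43313662, minus strand: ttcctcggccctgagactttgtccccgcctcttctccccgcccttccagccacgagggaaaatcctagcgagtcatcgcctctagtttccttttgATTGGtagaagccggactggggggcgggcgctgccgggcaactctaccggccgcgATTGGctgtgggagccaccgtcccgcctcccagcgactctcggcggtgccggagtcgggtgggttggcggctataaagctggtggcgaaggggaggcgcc
DHCR7, chr11:71448394-71448643, minus strand: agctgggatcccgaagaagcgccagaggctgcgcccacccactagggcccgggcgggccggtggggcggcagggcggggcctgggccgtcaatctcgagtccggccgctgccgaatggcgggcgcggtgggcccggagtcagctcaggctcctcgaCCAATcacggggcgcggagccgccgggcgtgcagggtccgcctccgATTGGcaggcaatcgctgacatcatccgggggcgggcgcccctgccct
TM7SF2, chr11:65111622-65111871, plus strand: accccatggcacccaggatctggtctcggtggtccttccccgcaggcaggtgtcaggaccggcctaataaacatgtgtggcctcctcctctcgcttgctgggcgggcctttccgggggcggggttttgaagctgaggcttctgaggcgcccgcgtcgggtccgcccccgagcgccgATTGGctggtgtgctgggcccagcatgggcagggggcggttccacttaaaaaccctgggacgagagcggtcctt
The NF-Y box occurred in the windows of 21 of 27 members, 77.8%, against 39.7% of 27305 genes with a window and 42.8% of the 11161 of them in the expression table. MSMO1 held 4 copies in the stretch shown, beginning 185, 139, 76 and 34 bases before the start. The Sp1 box GGGCGG was found in 25 members, 92.6%, against 76.9% of the table's genes. The E-box CACGTG was found in 5 members (ELOVL5, INSIG1, LSS, SC5D and SCAP), 18.5% against 12.5%. The strict sterol regulatory element was found in SREBF2 alone, 133 bases before its start, which is 3.7% of members against 1.48%. Matches of different motifs were counted separately, also where they overlapped. These matches describe letters in a window, and genes with several listed starts have more windows in which a match could fall. The HMGCS1 and DHCR7 windows that are not shown held no NF-Y box.

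Before the results by gene, the series itself was checked. The values are log2 RPKM (read density per unit of gene length, scaled to library size) after conditional quantile normalization, so levels can be compared between genes, and read depth is unknown. PAX8, a transcription factor of Müllerian epithelium, lay between means of 5.85 and 6.74 log2 RPKM in the 5 lines, while WT1 lay between -5.07 and -1.52, near absence. Of 12 Müllerian epithelial markers, 10 were lower in Ov4Cis than in the parental line, 6 in Ov4Carbo, 9 in Ov4Carbo4 and 9 in Ov4Carbo7 (limma adjusted p under 0.05). Among all genes 16.4%, 16.2%, 18.0% and 20.4% were lower in these lines. In the same order 1, 2, 1 and 1 of the markers were higher, against 19.8%, 17.7%, 21.6% and 22.2% of all genes. The median log2 fold changes of the 12 markers were -4.49, -0.68, -0.88 and -1.87. Their part in the results below was not tested. Numbers in the sample titles form 2 series. One holds all parental and Ov4Cis samples and replicates 2 and 3 of Ov4Carbo, and the other holds replicate 1 of Ov4Carbo and all samples of both clones. Nothing in the labels says that the series are batches. The comparison of Ov4Cis with the parental line lies within 1 series, but for both clones against the parental line the title series and the line cannot be told apart except through replicate 1 of Ov4Carbo.

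Against the parental line, more members fell than rose in each resistant line, by the widest margin in the 2 clones. A gene is called changed here at a limma adjusted p under 0.05 over all 16604 genes, and at least 2-fold changed when its absolute log2 fold change also reached 1. In Ov4Cis 5 of 31 members changed, 16.1% against 36.2% of all genes with 1 higher and 4 lower. In Ov4Carbo 6 changed, 19.4% against 34.0% of all genes, with 1 higher and 5 lower. Both lines thus had a smaller share of members changed than of all genes. In Ov4Carbo4 12 members changed, 38.7% against 39.7% of all genes, and 10 of the 12 were lower. In Ov4Carbo7 11 changed, 35.5% against 42.6% of all genes, and 10 of the 11 were lower. The shares of members that were lower were 12.9%, 16.1%, 32.3% and 32.3% in these lines in the order given, against 16.4%, 16.2%, 18.0% and 20.4% of all genes. The shares that were higher were 3.23%, 3.23%, 6.45% and 3.23%, against 19.8%, 17.7%, 21.6% and 22.2% of all genes. In both clones the members thus leaned to lower values more than all genes did. All 3 values lay below all 3 parental values for 6 members in Ov4Cis (23.9% of all genes), 8 in Ov4Carbo (18.4%), 12 in Ov4Carbo4 (25.6%) and 19 in Ov4Carbo7 (27.0%).

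**Figure D1:**
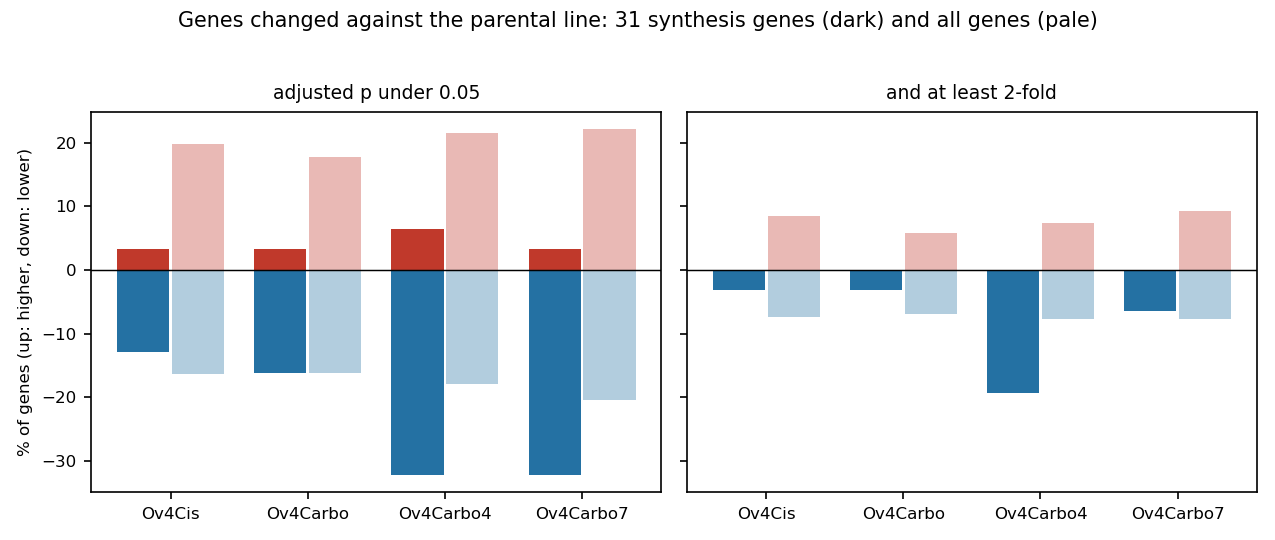
Share of genes changed against the parental line in each resistant line, in percent, at adjusted p under 0.05 (left) and at least 2-fold as well (right). Dark bars are the 31 synthesis genes and pale bars all 16604 genes, with higher genes above 0 and lower genes below. The dark bar of at least 2-fold lower genes is longest in Ov4Carbo4, 19.4% against 7.7% of all genes, and no dark bar stands above 0 in the right panel.

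At least 2-fold lower were 6 members in Ov4Carbo4 (19.4%, against 7.7% of all genes), 2 in Ov4Carbo7 (6.45% against 7.75%), 1 in Ov4Cis (3.23% against 7.41%) and 1 in Ov4Carbo (3.23% against 6.93%). In no resistant line was a member at least 2-fold higher than in the parental line, and 0 reached that size at an unadjusted p under 0.05 either. The highest called rises were 0.62 on the log2 scale, for ACLY in Ov4Carbo4 and STARD4 in Ov4Carbo7. Among all genes, 8.46%, 5.76%, 7.43% and 9.26% were at least 2-fold higher in Ov4Cis, Ov4Carbo, Ov4Carbo4 and Ov4Carbo7. The median log2 fold change of the 31 members was -0.14, -0.15, -0.26 and -0.36 in the same order, against 0.04, 0.03, 0.07 and 0.02 for all genes. The changes were mostly small: the median absolute log2 fold change of members was 0.23, 0.17, 0.30 and 0.38, against 0.33, 0.33, 0.36 and 0.38 for all genes.

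Counts of changed members depended on single libraries in 3 of these comparisons. The count for Ov4Cis was 2 without parental replicate 1, 2 without Ov4Cis replicate 2 or 3, and 3 without parental replicate 3. For Ov4Carbo it was 2 without parental replicate 1 or 2, 1 without parental replicate 3, and 3 without Ov4Carbo replicate 1 or 2. The excess of falls was not kept in each of these: Ov4Cis had 1 rise and 1 fall without parental replicate 1 or Ov4Cis replicate 2 or 3, and Ov4Carbo had 2 rises and 1 fall without Ov4Carbo replicate 2. For Ov4Carbo7 it was 7 without parental replicate 1 or 2, 6 without parental replicate 3, 7 without Ov4Carbo4 replicate 1 (a sample that enters only through the shared spread), and 4, 7 and 5 without Ov4Carbo7 replicate 1, 2 and 3. For Ov4Carbo4 it stayed between 10 and 14. Against the parental line, alternatives were followed gene by gene only for changes of at least 2-fold. Smaller falls and rises named below are given without that check. A term for the title series rests on replicate 1 of Ov4Carbo alone, which held the lowest value of its line for 22 of 31 members. For Ov4Carbo its fit is the same as leaving that replicate out, with a count of 3. For both clones only effect sizes are given with this term. It could not decide whether the clones' calls depend on the series.

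Each of the 4 comparisons uses the same 3 parental samples, so a gene that differed in several lines is given with its own value in each. FADS2 was lower in all 4 resistant lines, 1 of 31 members, where 3.26% of all genes were lower in all 4. SQLE and DHCR7 were lower in 3 lines, and ACAT2, HMGCS1, MVK, CYP51A1 and TM7SF2 in 2. ACLY was higher in 3 lines. PMVK, IDI1, FDPS, MSMO1, NSDHL, HSD17B7, EBP, INSIG1, FASN, ELOVL5 and FADS1, 11 members in all, changed in none. No member was higher in one line and lower in another. By means, the parental line was the highest of the 5 for 14 members, and Ov4Carbo4 and Ov4Carbo7 were the lowest for 13 and 11. Apart from genes lower in all 4 lines, the shares of all genes with these patterns were not computed. Whether the other counts are unusual is therefore unknown.

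**Figure D2:**
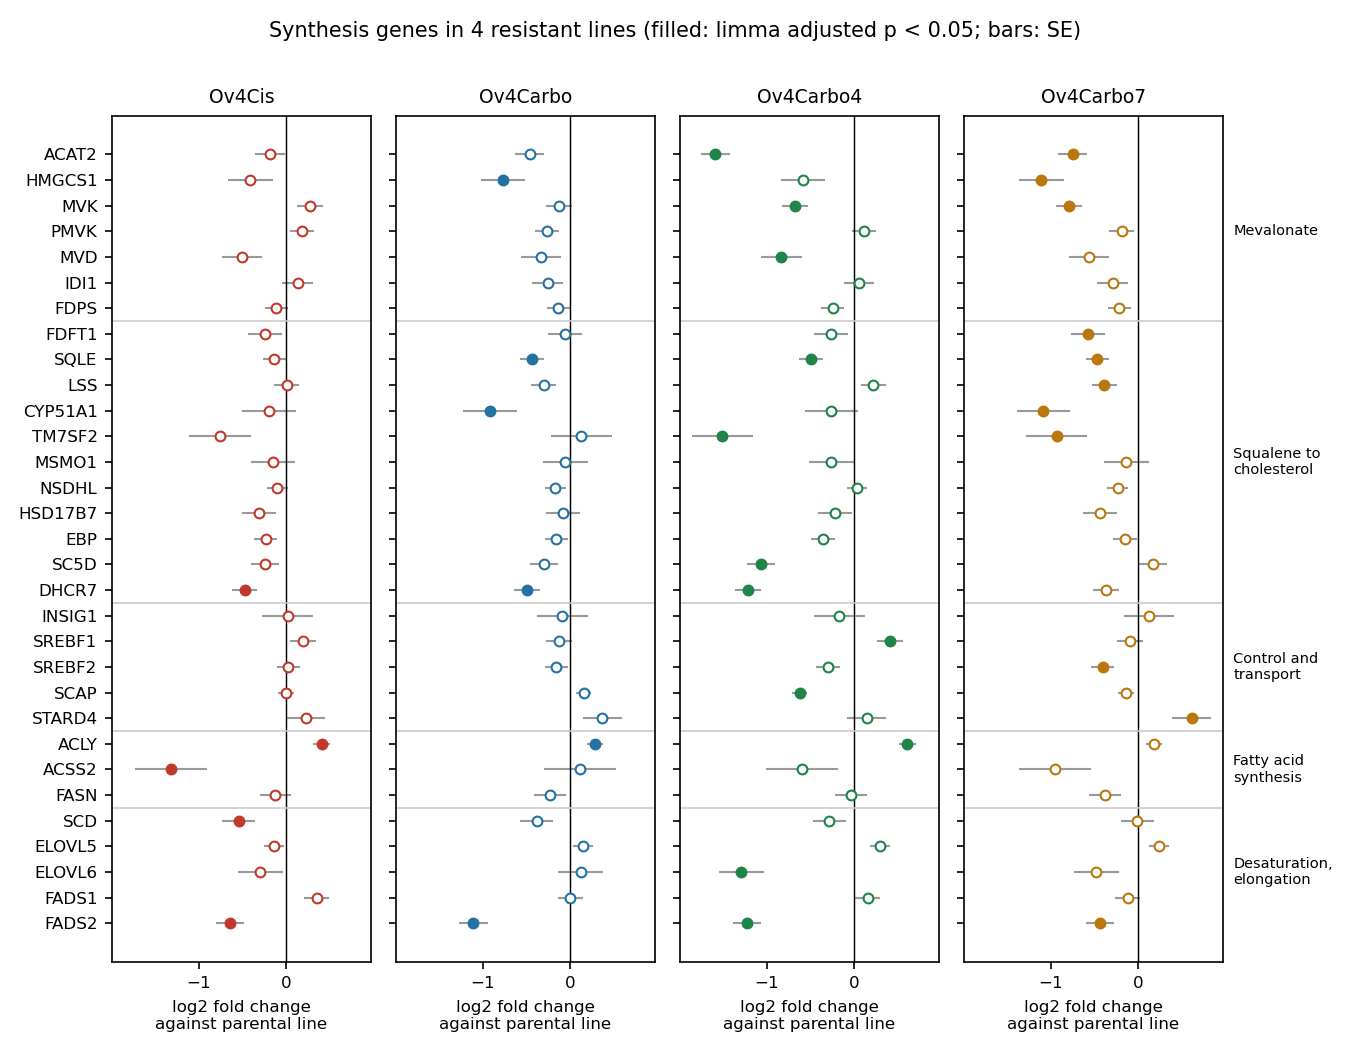
Log2 fold change of each of the 31 genes against the parental line in the 4 resistant lines, grouped by role. Points are limma estimates, bars their SE, and filled points passed an adjusted p of 0.05. Filled points lie mostly to the left of 0, from -1.59 for ACAT2 in Ov4Carbo4 to 0.62 for STARD4 in Ov4Carbo7 and ACLY in Ov4Carbo4.

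Among the 7 genes of the mevalonate branch, which make the isoprenoid units of sterols, 0 changed in Ov4Cis by limma (1, MVD, had an unadjusted p under 0.05), 1 fell in Ov4Carbo, 3 fell in Ov4Carbo4 and 3 fell in Ov4Carbo7. None rose. Among all genes 16.4%, 16.2%, 18.0% and 20.4% were lower in the 4 lines. ACAT2 (ENSG00000120437), which joins acetyl-CoA units at the head of the branch, stood at 6.04, 5.78 and 5.73 log2 RPKM in replicates 1, 2 and 3 of the parental line, at 5.90, 5.52 and 5.58 in Ov4Cis, at 5.06, 5.50 and 5.59 in Ov4Carbo, at 4.28, 4.47 and 4.03 in Ov4Carbo4 and at 5.22, 5.14 and 4.93 in Ov4Carbo7. All 3 values of Ov4Carbo and of each clone lay below all parental values, and Ov4Carbo4 lay below the other 4 lines. ACAT2 was 3.01-fold lower in Ov4Carbo4 (log2 fold change -1.59, SE 0.17, limma adjusted p = 1.51e-05) and also fell in Ov4Carbo7 (log2 fold change -0.75, SE 0.17, limma adjusted p = 0.0034). The value in Ov4Carbo4 was -1.10 with the title series term. In Ov4Cis the difference was -0.18 (SE 0.17, adjusted p = 0.444) and in Ov4Carbo -0.46 (SE 0.17, adjusted p = 0.0516).

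HMGCS1 (ENSG00000112972), the synthase that adds the next acetyl unit and a gene known to follow SREBF2, stood at 6.42, 6.0 and 5.98 log2 RPKM in replicates 1, 2 and 3 of the parental line, at 6.20, 5.48 and 5.51 in Ov4Cis, at 5.17, 5.46 and 5.48 in Ov4Carbo, at 5.37, 6.13 and 5.17 in Ov4Carbo4 and at 5.16, 5.12 and 4.80 in Ov4Carbo7. The Ov4Carbo and Ov4Carbo7 values lay below all parental values, whereas replicate 1 of Ov4Cis and replicate 2 of Ov4Carbo4 reached into the parental range. It was 2.15-fold lower in Ov4Carbo7 (log2 fold change -1.11, SE 0.25, limma adjusted p = 0.00378) and fell in Ov4Carbo (log2 fold change -0.77, SE 0.25, limma adjusted p = 0.0347). The Ov4Carbo7 value under the title series term was -0.81. The differences in Ov4Cis, -0.41 (SE 0.25, adjusted p = 0.239), and in Ov4Carbo4, -0.58 (SE 0.25, adjusted p = 0.0884), did not pass.

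MVK (ENSG00000110921), the first of the kinases that act on mevalonate, stood at 3.88, 3.84 and 3.79 log2 RPKM in replicates 1, 2 and 3 of the parental line, at 4.40, 3.90 and 4.04 in Ov4Cis, at 3.55, 3.88 and 3.71 in Ov4Carbo, at 3.16, 3.41 and 2.92 in Ov4Carbo4 and at 3.14, 3.01 and 2.97 in Ov4Carbo7. All values of both clones lay below all parental values, and all Ov4Cis values lay above them. MVK fell in Ov4Carbo4 (log2 fold change -0.67, SE 0.15, limma adjusted p = 0.00341) and Ov4Carbo7 (log2 fold change -0.80, SE 0.15, limma adjusted p = 0.001), while Ov4Cis at 0.28 (SE 0.15, adjusted p = 0.174) did not pass. MVD, the decarboxylase that ends the mevalonate steps, fell from 5.01 ± 0.15 (mean ± SD, n = 3) to 4.17 ± 0.39 in Ov4Carbo4 (log2 fold change -0.83, SE 0.23, limma adjusted p = 0.0125). The next kinase PMVK, the isomerase IDI1 and the prenyl synthase FDPS passed no test against the parental line, with log2 fold changes between -0.29 and 0.18 in the 4 lines. FDPS has 8 annotated pseudogenes by name, between which the authors' counting could have split reads.

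In the 11 genes from squalene to cholesterol, 5 fell in Ov4Carbo7, 4 in Ov4Carbo4, 3 in Ov4Carbo and 1 in Ov4Cis, and none rose, where 20.4%, 18.0%, 16.2% and 16.4% of all genes were lower. SQLE (ENSG00000104549), the epoxidase that opens the sterol branch, stood at 5.41, 5.25 and 5.32 log2 RPKM in replicates 1, 2 and 3 of the parental line, at 5.34, 5.11 and 5.13 in Ov4Cis, at 5.06, 4.69 and 4.92 in Ov4Carbo, at 4.76, 5.10 and 4.64 in Ov4Carbo4 and at 4.80, 4.99 and 4.79 in Ov4Carbo7. Every Ov4Carbo, Ov4Carbo4 and Ov4Carbo7 value lay below every parental value, while Ov4Cis overlapped it. The falls of SQLE were alike in size: -0.43 (SE 0.14, adjusted p = 0.027) in Ov4Carbo, -0.49 (SE 0.14, adjusted p = 0.0122) in Ov4Carbo4 and -0.46 (SE 0.14, adjusted p = 0.0153) in Ov4Carbo7, against -0.13 (SE 0.14, adjusted p = 0.491) in Ov4Cis. FDFT1, the squalene synthase before it, fell in Ov4Carbo7 from 6.39 ± 0.21 to 5.81 ± 0.15 (log2 fold change -0.58, SE 0.19, limma adjusted p = 0.0309). LSS, which closes the sterol rings, fell in Ov4Carbo7 as well, from 6.36 ± 0.12 to 5.97 ± 0.19 (log2 fold change -0.38, SE 0.14, limma adjusted p = 0.0474), and had its highest mean, 6.58 ± 0.28, in Ov4Carbo4.

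CYP51A1 (ENSG00000001630), the lanosterol demethylase, stood at 2.48, 2.49 and 2.71 log2 RPKM in replicates 1, 2 and 3 of the parental line, at 2.39, 2.47 and 2.23 in Ov4Cis, at 1.72, 0.97 and 2.24 in Ov4Carbo, at 2.22, 2.61 and 2.07 in Ov4Carbo4 and at 0.83, 1.76 and 1.83 in Ov4Carbo7. The Ov4Cis, Ov4Carbo and Ov4Carbo7 values lay below all parental values, with a wide spread in Ov4Carbo and Ov4Carbo7, and the gene is a low one among the members. It was 2.12-fold lower in Ov4Carbo7 (log2 fold change -1.09, SE 0.31, limma adjusted p = 0.0127) and fell in Ov4Carbo (log2 fold change -0.92, SE 0.31, limma adjusted p = 0.0365). The Ov4Carbo7 value was -0.76 (adjusted p = 0.0578) without Ov4Carbo7 replicate 1 and -1.20 with the title series term. CYP51A1 has 3 annotated pseudogenes by name, so its counts are uncertain where reads could be split.

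TM7SF2 (ENSG00000149809), a sterol reductase of the step after demethylation, stood at 3.64, 3.42 and 3.80 log2 RPKM in replicates 1, 2 and 3 of the parental line, at 3.86, 2.49 and 2.23 in Ov4Cis, at 3.45, 3.86 and 3.94 in Ov4Carbo, at 1.86, 2.34 and 2.13 in Ov4Carbo4 and at 2.72, 3.07 and 2.26 in Ov4Carbo7. Both clones lay below all parental and all Ov4Carbo values, and in Ov4Cis replicate 1 was at the parental level while the other replicates were not. TM7SF2 was 2.85-fold lower in Ov4Carbo4 (log2 fold change -1.51, SE 0.35, limma adjusted p = 0.00463) and fell in Ov4Carbo7 (log2 fold change -0.93, SE 0.35, limma adjusted p = 0.0491). With the title series term the Ov4Carbo4 value was -1.06.

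SC5D (ENSG00000109929), the desaturase near the end of the pathway, stood at 5.50, 5.40 and 5.31 log2 RPKM in replicates 1, 2 and 3 of the parental line, at 5.31, 5.07 and 5.11 in Ov4Cis, at 5.35, 4.74 and 5.25 in Ov4Carbo, at 4.28, 4.56 and 4.16 in Ov4Carbo4 and at 5.52, 5.76 and 5.47 in Ov4Carbo7. Ov4Carbo4 lay below every other sample, and the other resistant lines overlapped the parental values. SC5D was 2.10-fold lower in Ov4Carbo4 (log2 fold change -1.07, SE 0.16, limma adjusted p = 0.000226) and did not pass in the other lines. DHCR7 (ENSG00000172893), the reductase that makes cholesterol in the last step, stood at 6.62, 6.54 and 6.60 log2 RPKM in replicates 1, 2 and 3 of the parental line, at 6.39, 5.96 and 5.98 in Ov4Cis, at 6.0, 6.03 and 6.25 in Ov4Carbo, at 5.34, 5.67 and 5.10 in Ov4Carbo4 and at 6.22, 6.27 and 6.18 in Ov4Carbo7. All 12 values of the resistant lines lay below all 3 parental values, and Ov4Carbo4 was lowest. DHCR7 was 2.33-fold lower in Ov4Carbo4 (log2 fold change -1.22, SE 0.15, limma adjusted p = 4.48e-05). Smaller falls were found in Ov4Cis, -0.47 (SE 0.15, adjusted p = 0.0241), and in Ov4Carbo, -0.49 (SE 0.15, adjusted p = 0.0227), whereas Ov4Carbo7 at -0.36 (SE 0.15, adjusted p = 0.0653) did not pass. With the title series term the Ov4Carbo4 values of SC5D and DHCR7 were -1.42 and -1.08.

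The remaining sterol enzymes passed no test against the parental line. These are the methyl oxidase MSMO1, the dehydrogenase NSDHL, the ketoreductase HSD17B7 and the isomerase EBP. Their means across the lines ran from 5.0 ± 0.38 to 5.26 ± 0.34 for MSMO1, from 5.03 ± 0.14 to 5.30 ± 0.12 for NSDHL, from 1.38 ± 0.09 to 1.81 ± 0.14 for HSD17B7 and from 5.85 ± 0.12 to 6.21 ± 0.12 for EBP. HSD17B7 was the lowest member by its mean over the 15 samples, has 2 annotated pseudogenes by name and is uncertain for that reason.

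**Figure D3:**
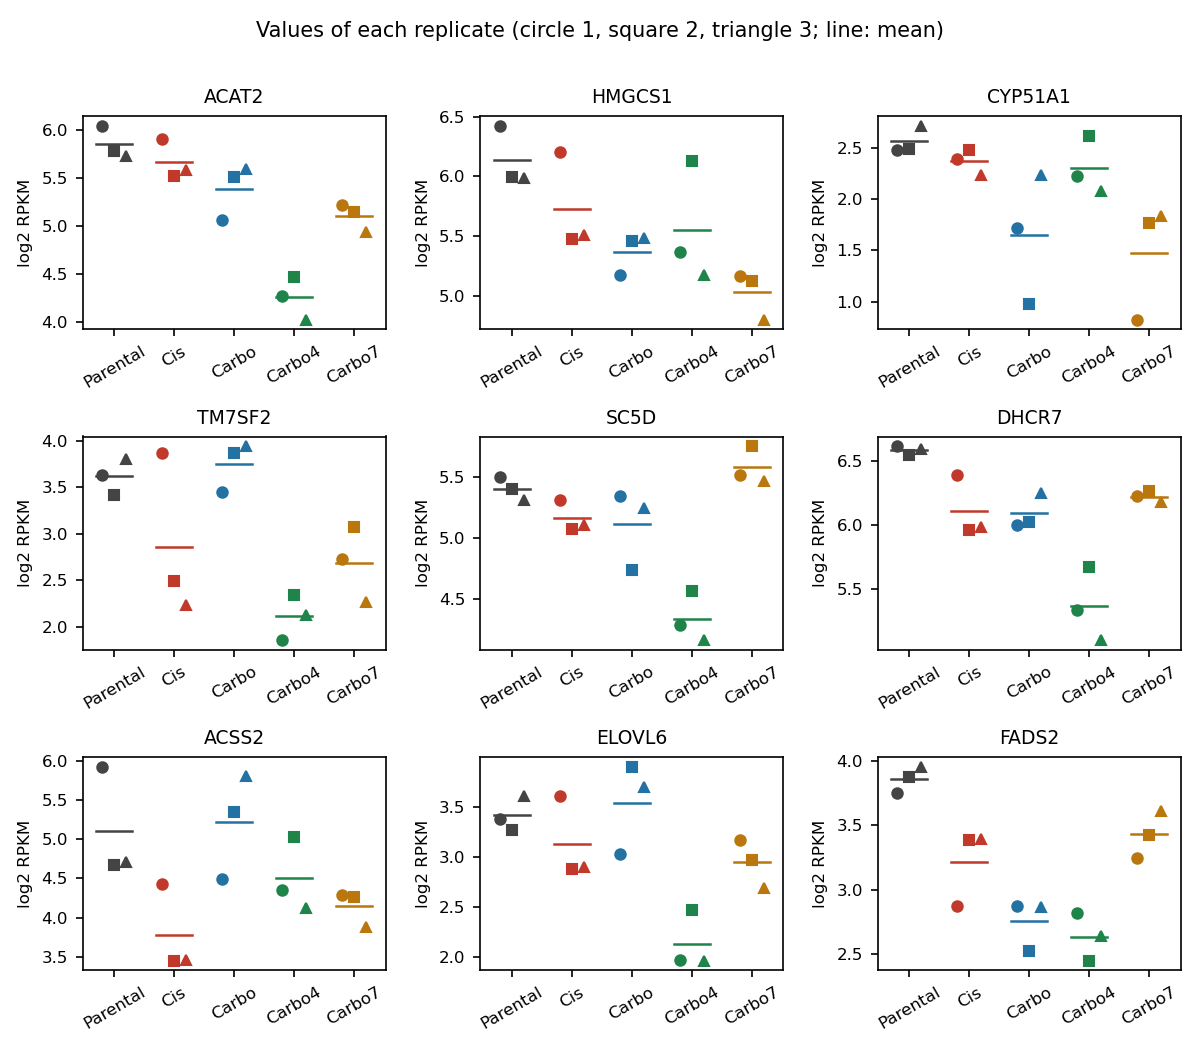
Log2 RPKM of each replicate for the 9 members that were at least 2-fold changed in at least 1 of the 8 designed comparisons (all but those of Ov4Cis with the clones), by line, with the mean of the 3 replicates as a line. ACAT2, SC5D and DHCR7 are lowest in Ov4Carbo4 with no overlap with another line, and FADS2 is highest in the parental line with no overlap.

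Of 5 control and sterol transport genes, 0 changed in Ov4Cis and Ov4Carbo by limma (0 had an unadjusted p under 0.05 in either). In each clone 1 rose and 1 fell. Among all genes 36.2% changed in Ov4Cis and 34.0% in Ov4Carbo. In Ov4Carbo4 21.6% of all genes were higher and 18.0% lower, and in Ov4Carbo7 22.2% and 20.4%. INSIG1 (ENSG00000186480), the sterol-dependent anchor of SCAP, stood at 5.65, 4.99 and 4.87 log2 RPKM in replicates 1, 2 and 3 of the parental line, at 5.68, 5.01 and 4.89 in Ov4Cis, at 4.90, 4.96 and 5.38 in Ov4Carbo, at 4.91, 5.57 and 4.53 in Ov4Carbo4 and at 5.35, 5.45 and 5.09 in Ov4Carbo7. The 5 lines overlapped, and the replicates of a line differed by more than the line means did. Its log2 fold changes were 0.02 (SE 0.29, adjusted p = 0.966), -0.09 (SE 0.29, adjusted p = 0.843), -0.17 (SE 0.29, adjusted p = 0.687) and 0.13 (SE 0.29, adjusted p = 0.757) in the order of the lines, none past the threshold.

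SREBF2 (ENSG00000198911), which encodes the factor known mainly for cholesterol genes, stood at 6.74, 6.58 and 6.62 log2 RPKM in replicates 1, 2 and 3 of the parental line, at 6.73, 6.76 and 6.53 in Ov4Cis, at 6.33, 6.37 and 6.79 in Ov4Carbo, at 6.27, 6.54 and 6.24 in Ov4Carbo4 and at 6.17, 6.36 and 6.21 in Ov4Carbo7. Both clones lay below all parental values and the other lines overlapped them. SREBF2 fell in Ov4Carbo7 (log2 fold change -0.41, SE 0.13, limma adjusted p = 0.0276), and Ov4Carbo4 at -0.30 (SE 0.13, adjusted p = 0.0967) did not pass. SREBF1 (ENSG00000072310), which encodes the factor known mainly for fatty acid genes, stood at 4.59, 4.99 and 5.09 log2 RPKM in replicates 1, 2 and 3 of the parental line, at 5.21, 5.04 and 5.0 in Ov4Cis, at 4.55, 4.89 and 4.84 in Ov4Carbo, at 5.27, 5.54 and 5.09 in Ov4Carbo4 and at 4.82, 4.77 and 4.81 in Ov4Carbo7. All 3 Ov4Carbo4 values lay above the parental ones, replicate 3 by less than the last digit shown. SREBF1 rose in Ov4Carbo4 (log2 fold change 0.41, SE 0.15, limma adjusted p = 0.0455). The message of these 2 genes does not measure the cut, active factor.

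SCAP fell in Ov4Carbo4, from 4.21 ± 0.06 to 3.59 ± 0.07 (log2 fold change -0.62, SE 0.09, limma adjusted p = 0.000148), with all Ov4Carbo4 values below every other sample. STARD4, a carrier that moves cholesterol between membranes, rose in Ov4Carbo7 from 4.26 ± 0.33 to 4.88 ± 0.15 (log2 fold change 0.62, SE 0.22, limma adjusted p = 0.0408). Of the members, STARD4 was the only 1 that changed upward in Ov4Carbo7.

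Of the 3 measured genes of fatty acid synthesis, ACLY, which makes cytosolic acetyl-CoA from citrate, moved opposite to most members. ACLY rose from 6.43 ± 0.04 to 6.84 ± 0.11 in Ov4Cis, 6.71 ± 0.14 in Ov4Carbo and 7.04 ± 0.06 in Ov4Carbo4, and every value in these lines lay above every parental value. The log2 fold changes were 0.41 (SE 0.09, adjusted p = 0.00415), 0.29 (SE 0.09, adjusted p = 0.0331) and 0.62 (SE 0.09, adjusted p = 0.000242), and 0.19 (SE 0.09, adjusted p = 0.129) in Ov4Carbo7. ACSS2 (ENSG00000131069), which makes acetyl-CoA from acetate, stood at 5.92, 4.67 and 4.70 log2 RPKM in replicates 1, 2 and 3 of the parental line, at 4.43, 3.45 and 3.46 in Ov4Cis, at 4.50, 5.35 and 5.80 in Ov4Carbo, at 4.35, 5.03 and 4.13 in Ov4Carbo4 and at 4.28, 4.27 and 3.88 in Ov4Carbo7. Ov4Cis lay below all parental values, while parental replicate 1 lay far above the other parental replicates. ACSS2 was 2.50-fold lower in Ov4Cis (log2 fold change -1.32, SE 0.41, limma adjusted p = 0.0246), but this was -0.91 (adjusted p = 0.108) without parental replicate 1, -1.15 (adjusted p = 0.0868) without Ov4Cis replicate 2 and -1.16 (adjusted p = 0.0893) without Ov4Cis replicate 3. It also missed the threshold when only both lines compared were fitted, -1.32 (adjusted p = 0.0601).

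FASN (ENSG00000169710), the fatty acid synthase and the highest member in these lines, stood at 8.27, 8.20 and 8.32 log2 RPKM in replicates 1, 2 and 3 of the parental line, at 8.27, 8.09 and 8.08 in Ov4Cis, at 7.83, 7.89 and 8.39 in Ov4Carbo, at 8.16, 8.48 and 8.06 in Ov4Carbo4 and at 7.53, 8.04 and 8.09 in Ov4Carbo7. Its values overlapped the parental ones in Ov4Cis, Ov4Carbo and Ov4Carbo4 and lay below them in Ov4Carbo7. The log2 fold changes of FASN were -0.12 (SE 0.18, adjusted p = 0.641), -0.23 (SE 0.18, adjusted p = 0.35), -0.03 (SE 0.18, adjusted p = 0.907) and -0.38 (SE 0.18, adjusted p = 0.108) in Ov4Cis, Ov4Carbo, Ov4Carbo4 and Ov4Carbo7, none past the threshold.

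Of the 5 genes that desaturate and elongate fatty acids, 2 fell in each of Ov4Cis and Ov4Carbo4, and 1 in each of Ov4Carbo and Ov4Carbo7, against the same background of 16.4%, 16.2%, 18.0% and 20.4% lower among all genes. FADS2 (ENSG00000134824), the desaturase that starts the polyunsaturated series, stood at 3.75, 3.88 and 3.96 log2 RPKM in replicates 1, 2 and 3 of the parental line, at 2.87, 3.39 and 3.40 in Ov4Cis, at 2.87, 2.53 and 2.87 in Ov4Carbo, at 2.82, 2.45 and 2.64 in Ov4Carbo4 and at 3.25, 3.43 and 3.61 in Ov4Carbo7. All 12 resistant values lay below all parental values, lowest in Ov4Carbo4 and Ov4Carbo. FADS2 was 2.34-fold lower in Ov4Carbo4 (log2 fold change -1.23, SE 0.16, limma adjusted p = 9.09e-05) and 2.15-fold lower in Ov4Carbo (log2 fold change -1.11, SE 0.16, limma adjusted p = 0.000307). The falls in Ov4Cis and Ov4Carbo7 were -0.64 (SE 0.16, adjusted p = 0.00798) and -0.43 (SE 0.16, adjusted p = 0.0491). Under the title series term the value in Ov4Carbo4 was -1.40. FADS2 has 1 annotated pseudogene by name. FADS1, its neighbour in the same pathway, changed in no line, with means from 5.79 ± 0.15 in Ov4Carbo7 to 6.26 ± 0.12 in Ov4Cis.

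ELOVL6 (ENSG00000170522), which lengthens palmitate, stood at 3.38, 3.27 and 3.61 log2 RPKM in replicates 1, 2 and 3 of the parental line, at 3.61, 2.87 and 2.90 in Ov4Cis, at 3.02, 3.90 and 3.70 in Ov4Carbo, at 1.96, 2.46 and 1.96 in Ov4Carbo4 and at 3.17, 2.97 and 2.69 in Ov4Carbo7. Ov4Carbo4 lay below every other sample. ELOVL6 was 2.45-fold lower there than in the parental line (log2 fold change -1.29, SE 0.25, limma adjusted p = 0.00158). With the title series term the difference was -0.51. SCD (ENSG00000099194), which makes monounsaturated fatty acids, stood at 6.98, 6.63 and 6.76 log2 RPKM in replicates 1, 2 and 3 of the parental line, at 6.49, 6.11 and 6.15 in Ov4Cis, at 6.16, 6.42 and 6.66 in Ov4Carbo, at 6.41, 6.90 and 6.21 in Ov4Carbo4 and at 6.61, 6.92 and 6.82 in Ov4Carbo7. It fell in Ov4Cis, where all values lay below the parental ones (log2 fold change -0.54, SE 0.19, limma adjusted p = 0.0405), and has 1 annotated pseudogene by name. ELOVL5, an elongase of polyunsaturated chains, changed in no line, with means from 5.35 ± 0.04 in Ov4Cis to 5.78 ± 0.11 in Ov4Carbo4.

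The resistant lines also differed from one another in these genes. Any difference among the 5 lines passed the moderated F-test of limma for 19 of 31 members, 61.3% against 76.9% of all genes. Between Ov4Carbo4 and the Ov4Carbo population it came from, 11 members changed, 35.5% against 42.2% of all genes. Of these, 4 were higher in the clone (23.1% of all genes were) and 7 lower (19.2%). Between Ov4Carbo7 and Ov4Carbo 5 changed, 16.1% against 36.6%, with 2 higher (18.5% of all genes) and 3 lower (18.2%). The counts of the 2 clones were not tested against each other. Between Ov4Carbo7 and Ov4Carbo4 10 changed, 32.3% against 51.1%, with 6 higher in Ov4Carbo7 (24.0% of all genes) and 4 lower (27.1%). Ov4Cis differed from Ov4Carbo in 3 members, 9.68% against 34.2%, with 2 higher in Ov4Cis (18.1% of all genes) and 1 lower (16.1%). It differed from Ov4Carbo4 in 9, 29% against 44.0%, with 8 higher (21.7%) and 1 lower (22.3%), and from Ov4Carbo7 in 9, 29% against 39.2%, with 7 higher (20.1%) and 2 lower (19.1%). In each of these comparisons the share of members changed was below that of all genes.

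Against Ov4Carbo, Ov4Carbo4 had less ACAT2 (log2 fold change -1.13, SE 0.17, limma adjusted p = 0.000263), less TM7SF2 (log2 fold change -1.64, SE 0.35, limma adjusted p = 0.00288) and less ELOVL6 (log2 fold change -1.41, SE 0.25, limma adjusted p = 0.000945). SC5D, DHCR7, MVK and SCAP were lower too, by -0.78, -0.73, -0.55 and -0.78 on the log2 scale. LSS, SREBF1, PMVK and ACLY were higher in Ov4Carbo4, by 0.52, 0.54, 0.38 and 0.33. With the title series term Ov4Carbo4 is compared with replicate 1 of Ov4Carbo alone, so only effect sizes are given. They were -0.80 for ACAT2, -0.90 for ELOVL6 and -1.34 for TM7SF2.

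Ov4Carbo7 had less TM7SF2 than Ov4Carbo (log2 fold change -1.06, SE 0.35, limma adjusted p = 0.032), less MVK (-0.67 (SE 0.15, adjusted p = 0.00411)) and less SCAP (-0.30 (SE 0.09, adjusted p = 0.0195)), and more FADS2 (0.67 (SE 0.16, adjusted p = 0.00679)) and SC5D (0.47 (SE 0.16, adjusted p = 0.0372)). A fit with the title series term compares Ov4Carbo7 with replicate 1 of Ov4Carbo alone, so it could not decide whether these calls depend on the series. Without Ov4Carbo replicate 1 there were 10 changed members, 3 without Ov4Carbo replicate 2 or 3, 2 without Ov4Carbo7 replicate 1 and 3 without Ov4Carbo7 replicate 3. The TM7SF2 call was lost in 4 of these leave-outs, with -1.01 (adjusted p = 0.0839) without Ov4Carbo replicate 2, -0.97 (adjusted p = 0.0871) without Ov4Carbo replicate 3, -1.08 (adjusted p = 0.0628) without Ov4Carbo7 replicate 1 and -0.85 (adjusted p = 0.125) without Ov4Carbo7 replicate 3.

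The clones, whose samples share 1 title series, differed most in SC5D, which was 2.37-fold higher in Ov4Carbo7 than in Ov4Carbo4 (log2 fold change 1.25, SE 0.16, limma adjusted p = 4.34e-05). DHCR7, ACAT2, ELOVL6, FADS2 and SCAP were also higher in Ov4Carbo7, by 0.85, 0.84, 0.81, 0.79 and 0.48. CYP51A1, LSS, SREBF1 and ACLY were lower, by -0.83, -0.61, -0.50 and -0.43. The sterol steps at which a clone was the lower of the pair thus differed, with ACAT2, SC5D and DHCR7 lower in Ov4Carbo4 and LSS and CYP51A1 lower in Ov4Carbo7.

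Ov4Cis had less ACSS2 than Ov4Carbo (log2 fold change -1.43, SE 0.41, limma adjusted p = 0.0184), with more PMVK (0.45 (SE 0.14, adjusted p = 0.0253)) and FADS2 (0.46 (SE 0.16, adjusted p = 0.0446)). Without Ov4Cis replicate 3 there were 0 calls by limma (5 members had an unadjusted p under 0.05). There was 1 call without Ov4Cis replicate 2 and there were 2 without Ov4Carbo replicate 2, none of them among these 3 members. Without Ov4Carbo replicate 3 there were 3, of which 1 was among them, and without Ov4Carbo replicate 1 there were 5, with all 3 among them. The ACSS2 difference missed the threshold without Ov4Cis replicate 2 or 3 or Ov4Carbo replicate 2 or 3, at -1.27 (adjusted p = 0.0692), -1.27 (adjusted p = 0.0709), -1.37 (adjusted p = 0.0523) and -1.14 (adjusted p = 0.075). Against Ov4Carbo4, Ov4Cis had more ACAT2 (log2 fold change 1.41, SE 0.17, limma adjusted p = 3.13e-05), and against Ov4Carbo7 more MVK (log2 fold change 1.07, SE 0.15, limma adjusted p = 0.000131). These comparisons cross the title series, whose term rests on replicate 1 of Ov4Carbo alone, so only effect sizes are given with it. With the term ACAT2 stood at 0.92 and MVK at 0.83. Against Ov4Carbo7 the count was 4 without any 1 of the Ov4Cis replicates, and 3, 5 and 4 without Ov4Carbo7 replicate 1, 2 and 3.

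The members also moved together between replicates of 1 line. In Ov4Carbo4, replicate 2 held the highest of the 3 values for 28 of 31 members and replicate 3 the lowest for 26, where 33.3% and 31.2% of all genes did so. All 11 of the squalene-to-cholesterol genes were highest in Ov4Carbo4 replicate 2. In Ov4Cis, replicate 1 was highest for 26 members, against 41.7% of all genes, including 10 of the 11 squalene-to-cholesterol genes. Replicate 1 of the parental line was highest for 20 members, against 40.4% of all genes. In Ov4Carbo, replicate 3 was highest for 19 and replicate 1 lowest for 22, against 31.1% and 37.5% of all genes, and in Ov4Carbo7 replicate 3 was lowest for 19, against 32.3%. No single replicate number was the high one in every line.

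**Figure D4:**
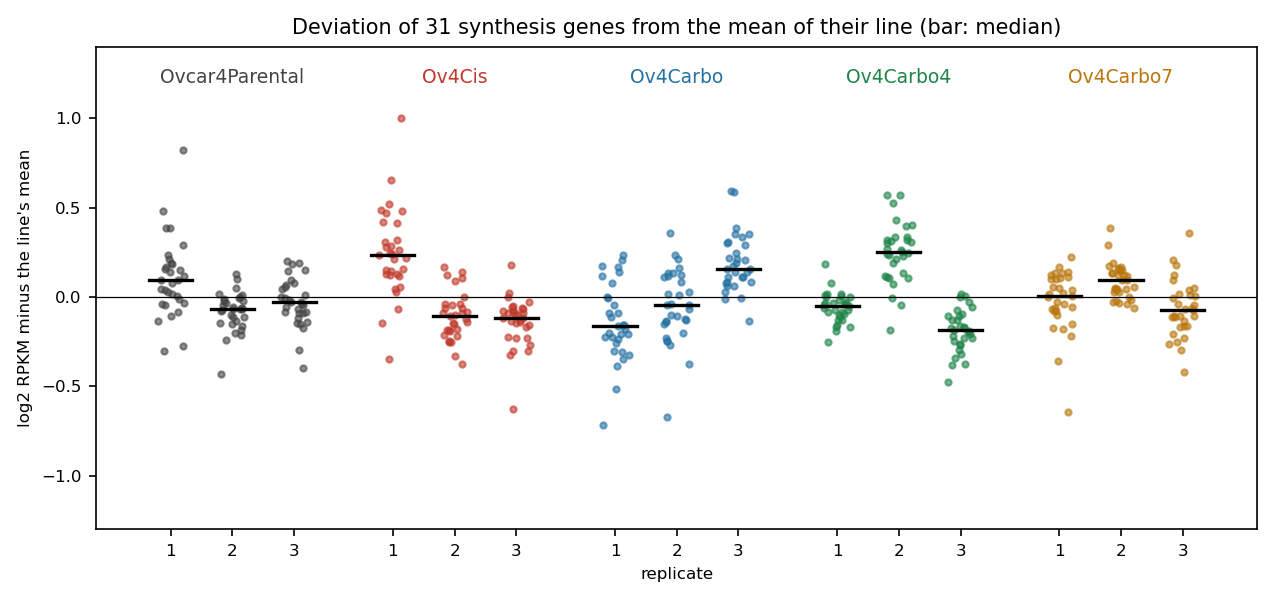
Log2 RPKM of each of the 31 genes minus the mean of its line, for each replicate of the 5 lines, with the median over genes as a bar. The medians reach 0.25 in Ov4Carbo4 replicate 2 and 0.24 in Ov4Cis replicate 1, and lie at -0.19 in Ov4Carbo4 replicate 3 and -0.16 in Ov4Carbo replicate 1.

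INSIG1 showed the pattern most plainly among the regulators. It lay 0.57 above its line mean in Ov4Carbo4 replicate 2 and 0.48 below it in replicate 3, against 0.48 above in parental replicate 1 and 0.49 above in Ov4Cis replicate 1. ACSS2 lay 0.83 above its mean in parental replicate 1, 0.65 above in Ov4Cis replicate 1 and 0.72 below in Ov4Carbo replicate 1. Over the members, the median deviation was 0.25 in Ov4Carbo4 replicate 2 and 0.24 in Ov4Cis replicate 1. The median log2 fold changes of members against the parental line were of like size or smaller, -0.26 in Ov4Carbo4 and -0.14 in Ov4Cis. For 16 of 31 members, 51.6%, the range of the 5 line means exceeded the largest range among replicates of a line, against 69.1% of all genes. INSIG1 and MSMO1 were at the other end: the line means of INSIG1 spanned 0.29 and its Ov4Carbo4 replicates 1.05, and those of MSMO1 0.26 against 0.82. Some other lists shared the order of replicates in Ov4Cis. There replicate 1 also held the highest value for 16 of 18 listed fatty acid oxidation genes and 12 of 15 sterol transport and storage genes. It was highest for 5 and lowest for 8 of 13 sterol control genes. Of 16 chain elongation and activation genes it was highest for 8 and lowest for 8. In Ov4Carbo4, replicate 2 was highest for 11 of the 15 transport genes, and replicate 3 lowest for 10 of those 15. Replicate 3 was also lowest for 10 of 13 sterol control genes and for 13 of the 18 oxidation genes. Of 14 genes that use isoprenoids or assist the sterol enzymes, Ov4Carbo4 replicate 2 was highest for 6 and lowest for 6. What set these replicates apart was not tested.

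Of 15 listed genes that carry, store and export sterols, 7 rose and 0 fell in Ov4Cis, 3 rose and 1 fell in Ov4Carbo, 2 rose and 1 fell in Ov4Carbo4, and 9 rose and 2 fell in Ov4Carbo7. The shares of all genes that were higher, 19.8%, 17.7%, 21.6% and 22.2% in Ov4Cis, Ov4Carbo, Ov4Carbo4 and Ov4Carbo7, and lower, 16.4%, 16.2%, 18.0% and 20.4%, are the background for these counts and for those of the lists that follow. SCARB1, a receptor that takes up cholesterol from lipoproteins, rose in Ov4Cis (log2 fold change 1.44, SE 0.09, limma adjusted p = 1.94e-07), Ov4Carbo (log2 fold change 1.58, SE 0.09, limma adjusted p = 3.22e-07) and Ov4Carbo7 (log2 fold change 0.93, SE 0.09, limma adjusted p = 8.79e-06). ABCA1, which exports cholesterol, rose by 1.37 in Ov4Cis, 1.45 in Ov4Carbo4 and 1.34 in Ov4Carbo7. NPC1, which carries cholesterol out of lysosomes, rose in Ov4Carbo7 (log2 fold change 1.64, SE 0.23, limma adjusted p = 0.000104). No alternative was run for the genes of these further lists. For the clones against the parental line, line and title series are mixed for them too.

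Of 13 further genes of sterol control, 2 rose and 2 fell in Ov4Cis, 1 rose in Ov4Carbo, 3 rose and 1 fell in Ov4Carbo4, and 5 rose in Ov4Carbo7. In Ov4Carbo7 the rises included INSIG2, a second SCAP anchor (log2 fold change 1.07, SE 0.15, limma adjusted p = 0.000108), and NR1H3, which encodes the sterol-sensing receptor LXR alpha (log2 fold change 1.39, SE 0.22, limma adjusted p = 0.000243). NR1H3 also rose in Ov4Cis, at 0.72 (SE 0.22, adjusted p = 0.0196). Of 14 genes that use isoprenoids or assist the sterol enzymes, 1 rose and 1 fell in Ov4Cis, 2 and 1 in Ov4Carbo, 2 and 3 in Ov4Carbo4, and 3 and 2 in Ov4Carbo7. ERG28, a scaffold of sterol demethylation, fell in Ov4Carbo7 (log2 fold change -1.12, SE 0.17, limma adjusted p = 0.00017), in Ov4Cis at -0.48 (SE 0.17, adjusted p = 0.0367) and in Ov4Carbo at -0.63 (SE 0.17, adjusted p = 0.0115).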

How the data were processed

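The deposited table gives log2 RPKM after conditional quantile normalization (cqn) by the authors, per the name of the deposited table, which also mentions a threshold whose rule is not stated. RNA was column-purified and libraries were made by polyA capture, per the labels' protocols. BWA 0.7.15-r1140, HTSeq and hg19 (GRCh37) are named in the submitters' processing notes, without a role or order, and the annotation is not given in the sources used here. Quantile normalization makes samples alike in distribution, so differences in total RNA content are not measured. No read depths are given, so precision is judged from replicate spread alone.

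Symbols matched 16448 of 16604 genes. A linear model with 1 coefficient per line was fitted to all genes and 15 samples with limma 3.58.1 in R 4.3.3 (two-sided), with Benjamini-Hochberg adjustment over all genes of each comparison, a threshold of 0.05 and no block. Of 10 comparisons, those of Ov4Cis with both clones were added after values were seen. The script was tested on simulated data. Figures used Python 3.11.15, pandas 2.3.3 and matplotlib 3.10.9. Promoter windows are RefSeq, GRCh38.p14; as that build differs from hg19, they serve for sequence only. Pseudogenes were counted by name in GENCODE.

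Replicate values are given for INSIG1, SREBF1, SREBF2, HMGCS1, SQLE, FASN, SCD and ACSS2 and for members changed at least 2-fold in 1 of the 8 designed comparisons, and for MVK, chosen after its values were seen. From each further list at most 3 genes were named, those with the largest changes against the parental line among genes at an adjusted p under 0.05, at least 2-fold, with replicate values that did not overlap and a mean over the 15 samples of at least log2 RPKM 1. Members and lists were chosen with earlier results of these data known. Over all lines, same-numbered replicates did not deviate together more than others (30 pairs, mean r -0.0324, from -0.394 to 0.437). The 60 other pairs had a mean r of 0.0164, from -0.385 to 0.479. Numbers were therefore not taken as pairs. Line pairs varied: same-numbered parental and Ov4Cis replicates had r 0.437, 0.0315 and 0.15. Replicate 1 of Ov4Carbo had -0.394 with parental replicate 1 and -0.331 with Ov4Cis replicate 1. With a replicate block, Ov4Cis against parental had 4 changed members. Alternatives were a variance trend, quantile normalization, median centring, a filter at mean log2 RPKM 1 (12037 genes), log2(RPKM + 1), only the lines compared, a replicate block, a title series term, stricter thresholds (for counts) and leaving out each replicate; those for the added comparisons were chosen after seeing the data.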

Additional observations from a re-analysis of the deposited data

Results flagged for a closer look

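The following members changed differently from the parental line in 2 resistant lines, by limma's test of the difference itself. In Ov4Carbo4 against Ov4Carbo the change of ACAT2 differed by -1.13 on the log2 scale (limma adjusted p = 0.000263), that of TM7SF2 by -1.64 (adjusted p = 0.00288) and that of ELOVL6 by -1.41 (adjusted p = 0.000945). In Ov4Carbo7 against Ov4Carbo, TM7SF2 differed by -1.06 (adjusted p = 0.032). Between the clones, SC5D was 1.25 higher in Ov4Carbo7 than in Ov4Carbo4 (adjusted p = 4.34e-05), and both clones lie in 1 title series. ACSS2 differed by -1.43 in Ov4Cis against Ov4Carbo (adjusted p = 0.0184). ACAT2 was 1.41 higher in Ov4Cis than in Ov4Carbo4 (adjusted p = 3.13e-05) and MVK 1.07 higher in Ov4Cis than in Ov4Carbo7 (adjusted p = 0.000131). The TM7SF2 difference of Ov4Carbo7 from Ov4Carbo and the ACSS2 difference of Ov4Cis from Ov4Carbo each missed the threshold in 4 leave-outs. Samples of Ov4Carbo lie in both title series, so comparisons with it cross them in part. The comparisons of Ov4Cis with the clones cross the title series, for which only replicate 1 of Ov4Carbo gives an estimate. With that term, an alternative for these comparisons chosen after seeing the data, ACAT2 was 0.92 higher and MVK 0.83, both under 2-fold. No explanation was tested.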

How the results depend on the processing

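Depth is unknown, and with 3 replicates a line only replicate spread limits precision. The 18 fold changes of at least 2-fold in the 10 comparisons gave 414 values under 8 alternatives and 15 leave-outs. Of these values 0 reversed and 20 missed the threshold, and the cause was not tested. Many could not reverse, because a fold change stays the same when a replicate of a line outside the comparison is left out. It also stays the same with a variance trend, the filter, only the lines compared or a replicate block. The title series term repeats the fit without Ov4Carbo replicate 1 for comparisons among the parental line, Ov4Cis and Ov4Carbo. It does so between the clones as well. Counts of changed members that moved by over 1.5 times follow. With a variance trend Ov4Cis against Ov4Carbo had 5. With only the lines compared, Ov4Carbo against parental had 2, Ov4Carbo4 against Ov4Carbo 6, Ov4Carbo7 against Ov4Carbo 3 and Ov4Cis against Ov4Carbo 0 (limma, 2 at an unadjusted p under 0.05). With a replicate block, Ov4Carbo7 against parental had 7 and no other count moved that far. With the title series term, counts were 3 in Ov4Carbo against the parental line and 5 in Ov4Cis against Ov4Carbo. Where a clone is compared with the parental line, Ov4Cis or Ov4Carbo, this term rests on replicate 1 of Ov4Carbo alone, so no count is given. At an adjusted p under 0.01, counts against the parental line were 2 in Ov4Cis, 1 in Ov4Carbo and 3 in Ov4Carbo7, those against Ov4Carbo 6 in Ov4Carbo4, 2 in Ov4Carbo7 and 0 in Ov4Cis (10 at an unadjusted p under 0.05), 1 in Ov4Cis against Ov4Carbo7, and 9 members passed the F-test. Requiring at least 2-fold gave 1, 1, 6 and 2 in Ov4Cis, Ov4Carbo, Ov4Carbo4 and Ov4Carbo7 against parental, 3, 1 and 1 in Ov4Carbo4, Ov4Carbo7 and Ov4Cis against Ov4Carbo, 1 between the clones, and 1 in Ov4Cis against each clone. Leaving out each replicate gave 2 to 7 in Ov4Cis, 1 to 7 in Ov4Carbo, 10 to 14 in Ov4Carbo4 and 4 to 13 in Ov4Carbo7 against parental, 8 to 12, 2 to 10 and 0 to 5 in Ov4Carbo4, Ov4Carbo7 and Ov4Cis against Ov4Carbo, 8 to 11 between the clones, 7 to 9 and 3 to 12 in Ov4Cis against Ov4Carbo4 and Ov4Carbo7, and 14 to 21 in the F-test.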

Other observations

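Fatty acid genes outside the synthesis set are counted here against the shares of all genes that were higher (19.8%, 17.7%, 21.6% and 22.2% in Ov4Cis, Ov4Carbo, Ov4Carbo4 and Ov4Carbo7) or lower (16.4%, 16.2%, 18.0% and 20.4%) than in the parental line. Of 16 measured genes of chain elongation and activation, 2 rose and 8 fell in Ov4Cis, 2 and 7 in Ov4Carbo, 4 and 7 in Ov4Carbo4 and 4 and 7 in Ov4Carbo7. ELOVL2, an elongase of very long polyunsaturated chains, rose in Ov4Cis (log2 fold change 1.41, SE 0.20, limma adjusted p = 0.000141) and Ov4Carbo4 (log2 fold change 1.83, SE 0.20, limma adjusted p = 2.1e-05) and fell in Ov4Carbo (log2 fold change -0.76, SE 0.20, limma adjusted p = 0.012) and Ov4Carbo7 (log2 fold change -2.57, SE 0.20, limma adjusted p = 1.24e-06). SCD5, a desaturase related to SCD, fell in Ov4Carbo (log2 fold change -2.38, SE 0.21, limma adjusted p = 4.92e-06), with smaller falls in Ov4Cis at -0.63 (SE 0.21, adjusted p = 0.0303) and Ov4Carbo7 at -0.82 (SE 0.21, adjusted p = 0.00637), and stood at 0.17 (SE 0.21, adjusted p = 0.546) in Ov4Carbo4. ACSL1, which activates fatty acids, rose in Ov4Carbo7 (log2 fold change 1.35, SE 0.21, limma adjusted p = 0.000226) and fell in Ov4Carbo4 (log2 fold change -0.77, SE 0.21, limma adjusted p = 0.0109). No alternative was run for the genes of this section, and the clones differ from the parental line in title series as well.

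Of 18 genes of fatty acid oxidation, 3 rose and 2 fell in Ov4Cis, 4 and 2 in Ov4Carbo, 4 and 1 in Ov4Carbo4 and 5 and 3 in Ov4Carbo7. SLC25A20, the mitochondrial carnitine carrier, rose in Ov4Cis (log2 fold change 1.03, SE 0.13, limma adjusted p = 4.37e-05), by 0.40 in Ov4Carbo (adjusted p = 0.0315) and by 0.75 in Ov4Carbo7 (adjusted p = 0.000483), and stood at -0.30 (SE 0.13, adjusted p = 0.0821) in Ov4Carbo4. HADH, a dehydrogenase of short chains, fell in all 4 lines, in Ov4Carbo7 at -1.21 (SE 0.12, adjusted p = 8.01e-06), in Ov4Cis at -0.49 (SE 0.12, adjusted p = 0.00678), in Ov4Carbo at -0.46 (SE 0.12, adjusted p = 0.012) and in Ov4Carbo4 at -0.36 (SE 0.12, adjusted p = 0.0323). Of 9 measured genes that supply fatty acid synthesis, 5 rose and 1 fell in Ov4Cis, 4 and 1 in Ov4Carbo, 2 and 1 in Ov4Carbo4 and 4 and 1 in Ov4Carbo7. ME1, a source of NADPH, rose in Ov4Carbo7 (log2 fold change 1.03, SE 0.16, limma adjusted p = 0.000287) and in Ov4Carbo at 0.46 (SE 0.16, adjusted p = 0.0452), and fell in Ov4Carbo4 (log2 fold change -0.93, SE 0.16, limma adjusted p = 0.00069).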
